A study of Drosophila melanogaster with 9 samples.

Results

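The nuclear genes for the proteins of the mitochondrial ribosome were examined in ATAC-seq peak lists of Kc167 cells, a line derived from Drosophila melanogaster embryos. The genes were taken by symbol, so genes of such proteins with other symbols, for example tko and bonsai, were not included. Every gene of the dm6 annotation whose symbol starts with mRpL (large subunit) or mRpS (small subunit) was included, which gave 73 of 18277 genes, 47 mRpL and 26 mRpS, all protein coding. Of the 18277 genes, 13968 are protein coding and the rest are not. A gene was scored as having a promoter peak in a library when a peak came within 100 bp of any of its transcript starts. Its strength was the percentile of the peak's −log10 q value among all peaks of the same list, so that 100 is the strongest peak of that library. ATAC-seq cuts and tags open DNA with the Tn5 transposase. Peaks were called separately in 9 libraries, 3 per group. M1BP KD cells were nucleofected with 20 µg of double-stranded RNA against M1BP, Cp190 KD cells with 12 µg against Cp190, and mock cells with no RNA, and each was harvested after 5 days. All groups were the same female line grown in culture and did not otherwise differ by label. The study asked how M1BP, a promoter-binding factor, and CP190, an insulator protein, act together at chromatin. The study calls the libraries of a group biological replicates, and the labels do not say whether they came from separate cultures, so p-values measure the spread between these libraries.

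Mitochondria make a few subunits of the respiratory chain on their own ribosomes. The RNAs of that ribosome are encoded in mitochondrial DNA, while its proteins are encoded in the nucleus, made in the cytosol and imported. Many have counterparts in bacterial ribosomes, and others are found only in mitochondria. M1BP is a zinc finger protein that binds Motif 1, a core promoter element of many housekeeping genes with paused RNA polymerase. CP190 is a core protein of Drosophila insulator complexes and is also found at many active promoters. The DNA replication-related element (DRE), bound by DREF, is another promoter element of housekeeping genes.

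The M1BP KD lists held 13464, 15209 and 15232 peaks, the Cp190 KD lists 18005, 18625 and 18054, and the mock lists 18959, 17178 and 18574. Background coverage, recovered from the deposited fold enrichment and −log10 p, was 29.5 to 35.2 fragments in M1BP KD, 39.1 to 46.4 in Cp190 KD and 39.7 to 41.7 in mock. The M1BP KD libraries therefore had both the lowest background coverage and the shortest lists, and the part of this in each result below was not tested beyond the other rank scales given. Read totals were not used here, so depth is given only by these values. Of the hemocyte-like markers fixed for Kc167, 7 were in the annotation, and Pxn, Hml and srp had a promoter peak in all 9 libraries while NimC1 and Col4a1 had none in any. Of 10 markers of other cell types in the annotation, elav and fkh had one in all 9 and 7 had none. The dsRNA acts on messenger RNA, so a promoter peak does not check the knockdown. The M1BP promoter itself had percentiles of 61.4, 64.5 and 67.5 in M1BP KD, 84.2, 76.2 and 82.9 in Cp190 KD and 77.6, 85.3 and 89.1 in mock. The Cp190 promoter had percentiles of 67.2, 79.5 and 75.9 in M1BP KD, 87.4, 85.6 and 86.2 in Cp190 KD and 83.7, 83.7 and 83.2 in mock.

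Promoter sequences were searched on both strands within 100 bp of each start, and the share of all 13968 protein-coding genes with the same match is given beside each count. Matches describe letters and are not evidence of binding. The Motif 1 core GGTCACAC, the element that M1BP binds, was found in 8 of the 73 genes (11.0%), against 7.55% of coding genes and 14.4% of coding genes with a promoter peak in all 3 mock libraries. It lay 19 bp before to 38 bp after the start, in the direction of transcription in 6 of the 8. The 30 bases around 7 of these matches follow, on the strand that reads the core, with the core in capitals. They are shown because they are the genes that could be compared by the target of the knockdown, and the match of mRpS16 is not shown. Positions are counted from the transcript start, which is 0, with positive values downstream.
mRpS30 at chrX:15786059-15786088 (+ strand, match at +23 bp): atccagcgtgcGGTCACACtgcagcaatga
mRpL22 at chrX:16783960-16783989 (+ strand, match at +38 bp): ctgctgccattGGTCACACtggcagattac
mRpL55 at chr3R:19094884-19094913 (- strand, match at +3 bp): accctcgggtcGGTCACACtatcagctgcc
mRpL13 at chr2L:18859207-18859236 (- strand, match at +23 bp): cttcataccttGGTCACACtgtctgccagc
mRpS21 at chr3R:13381765-13381794 (- strand, match at +26 bp): gtacagtaaatGGTCACACtgttttgaaag
mRpL48 at chr2L:1710432-1710461 (- strand, match at −19 bp): gccggctccatGGTCACACtggctcaagcg
mRpL27 at chr2L:4459593-4459622 (- strand, match at −9 bp): ctgaactcgggGGTCACACtggtgcccatc
In all 7 the base after the core was t, and the longer Motif 1 consensus was found in 6 of the 73 genes (8.22%, against 4.33% of coding genes and 8.40% of those with a peak in all 3 mock libraries). mRpS16 and mRpL27 held the core without the longer consensus.

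The DRE TATCGATA was found in 16 of the 73 genes (21.9%, against 8.48% of coding genes and 14.8% of those with a peak in all 3 mock libraries). The share was higher in 92 cytosolic ribosomal protein genes (29.3%) and in 31 other genes of mitochondrial gene expression (25.8%). The palindromic E-box CAGCTG was found in 40 (54.8%, against 17.4%). With only the 5-prime-most start of each gene the E-box shares were 52.1% and 13.8%. Coding genes with a promoter peak in all 3 mock libraries held it in 23.2% of cases, the 92 cytosolic ribosomal protein genes in 10.9%, and 31 other genes of mitochondrial gene expression in 61.3%. The E-box was thus common at both mitochondrial lists and not at the cytosolic ribosomal list. Of the 41 E-box matches, 36 lay within 40 bp of a start. Both E-box and DRE were found in 6 genes, E-box and Motif 1 core in 4, Motif 1 core and DRE in 1 (mRpL22), and 20 genes had none of the 3. Sites with the DRE in capitals are shown for 3 genes described below, mRpS14, mRpL10 and mRpL12.
mRpS14 at chrX:19479946-19479975 (- strand, match at −47 bp): cagctgttgccTATCGATAgtcccgcgcgt
mRpL10 at chr2L:203760-203789 (+ strand, match at −8 bp): aaatatctggcTATCGATAagaatgaataa
mRpL12 at chr3L:8956803-8956832 (+ strand, match at +23 bp): ccctggctgttTATCGATAaactgctcaca
E-box sites, in capitals, are shown for 3 genes that gained a promoter peak in M1BP KD (mRpS6, mRpL2 and mRpL28), for the strongest promoter (mRpS14) and for a weak one (mRpS2).
mRpS6 at chr3L:4364552-4364581 (+ strand, match at +14 bp): ctttccttgcatCAGCTGttaacactatca
mRpS6 at chr3L:4364568-4364597 (+ strand, match at +30 bp): tgttaacactatCAGCTGgtgggtcaacaa
mRpL2 at chr3L:11120845-11120874 (+ strand, match at +10 bp): aacgccgcgtaaCAGCTGttttcagccgca
mRpL28 at chr2L:4973979-4974008 (+ strand, match at +15 bp): ttcacatacgaaCAGCTGttttttccaaac
mRpS14 at chrX:19479958-19479987 (- strand, match at −58 bp): gtatgggctcatCAGCTGttgcctatcgat
mRpS2 at chr2L:4850413-4850442 (- strand, match at −11 bp): aacactacccacCAGCTGtttaccaaaatc
A protein-coding gene that starts on the other strand within 500 bp upstream was found for 53 of the 73 genes (72.6%), against 27.3% of coding genes, 42.8% of those with a peak in all 3 mock libraries and 39.1% of cytosolic ribosomal protein genes. In mock libraries the strongest promoter peak of 20 to 22 of the 47 genes tested below was also that of another gene, so a value can belong to a neighbour as well. The plot of promoter features shows these shares.

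**Figure D1:**
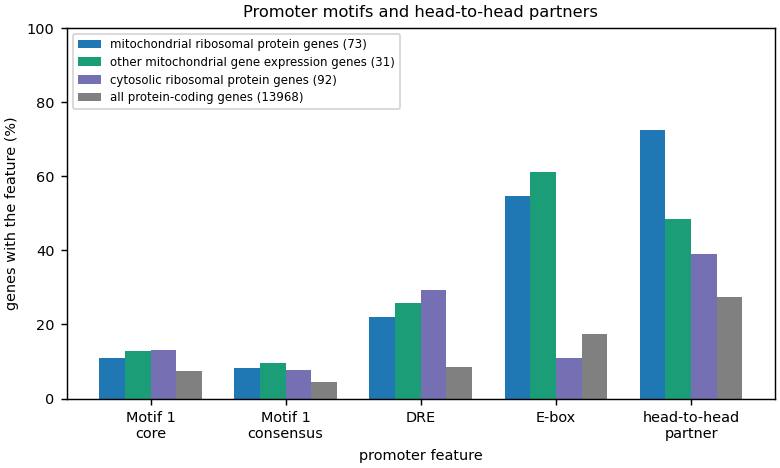
Share of genes (y axis, percent) with each promoter feature (x axis) among mitochondrial ribosomal protein genes, other mitochondrial gene expression genes, cytosolic ribosomal protein genes and all protein-coding genes. The E-box was found in 54.8% and 61.3% of the mitochondrial lists, 10.9% of the cytosolic ribosomal list and 17.4% of coding genes, and the Motif 1 core in 7.55 to 13.0%.

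A promoter peak was present in all 3 libraries for 53 genes in M1BP KD, 52 in Cp190 KD and 49 in mock. Of all 18277 genes, the counts were 6564 in M1BP KD, 7088 in Cp190 KD and 7096 in mock. In mock, 6450 of the 13968 protein-coding genes had one in all 3 libraries. A peak was present in all 9 libraries for 47 of the 73 (64.4%, against 33.4% of all 18277 genes). That share includes noncoding genes, and the share of protein-coding genes alone is not given. These 47 passed the filter of the tests below, and the other 26 are described with the presence of peaks. The genes stood in the middle and upper part of each list. In mock libraries their lowest percentile was 26.9 to 42.4, their median 68.7 to 73.0 and their highest 98.2 to 99.0. Per library the median number of fragments over their summits was 182 to 201 in M1BP KD, 266 to 294 in Cp190 KD and 241 to 258 in mock. The strongest promoter in mock was that of mRpS14, a small subunit protein with a bacterial counterpart. Its percentiles were 99.4, 99.5 and 99.0 in M1BP KD, 97.6, 98.8 and 98.8 in Cp190 KD and 99.0, 98.5 and 98.2 in mock, with all 9 libraries at the top of their lists. mRpL13 and mRpL55 came next and the lowest mock means belonged to mRpL9, mRpS2 and mRpL51. mRpL9 had 27.2, 42.1 and 35.6 in M1BP KD, 48.2, 55.9 and 46.5 in Cp190 KD and 41.6, 26.9 and 42.4 in mock, and its mock and M1BP KD values overlapped. The heat map of percentiles shows each library.

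**Figure D2:**
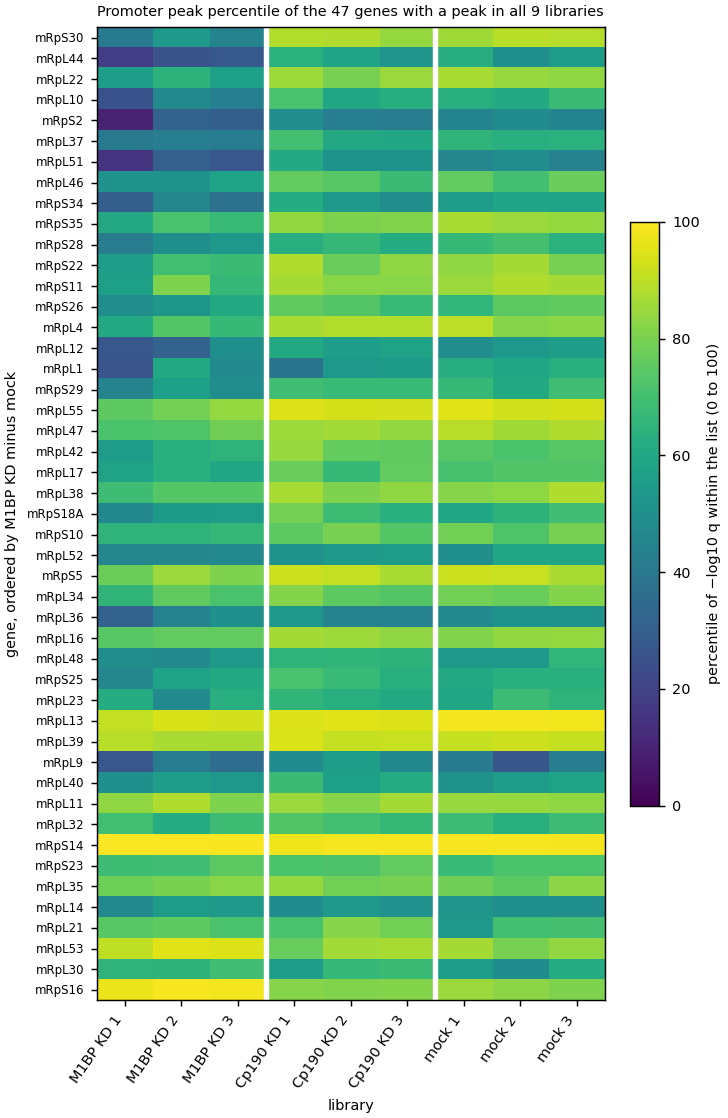
Percentile of the promoter peak (colour, 0 to 100) for the 47 genes (rows) in each of 9 libraries (columns, M1BP KD, Cp190 KD and mock). Rows are ordered by M1BP KD minus mock, and the M1BP KD columns are darker in the upper rows (mRpS30 to mRpS34) and brighter in the lowest (mRpS16).

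In M1BP KD against mock, 30 of the 47 genes had a lower percentile and 3 a higher one by limma (moderated test over all 6100 genes with a promoter peak in all 9 libraries, Benjamini-Hochberg adjusted p below 0.05). Over all genes tested, 52.6% were lower and 10.8% higher. The median change was −11.97 points over the 47 genes and −6.19 points over all genes, so the promoters tested moved down on balance on this scale. The M1BP KD lists held fewer peaks, and a percentile depends on which peaks a list holds. When percentiles were taken among the 6100 genes alone, whose median change was then 0.01, 11 of the 47 were lower and 10 higher and their median change was −1.96 points, while 26.7% of all genes were lower and 26.3% higher. On that scale 23.4% and 21.3% of the 47 were called, near the shares of all genes. The excess of falls over rises therefore depended on the rank scale.

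**Figure D3:**
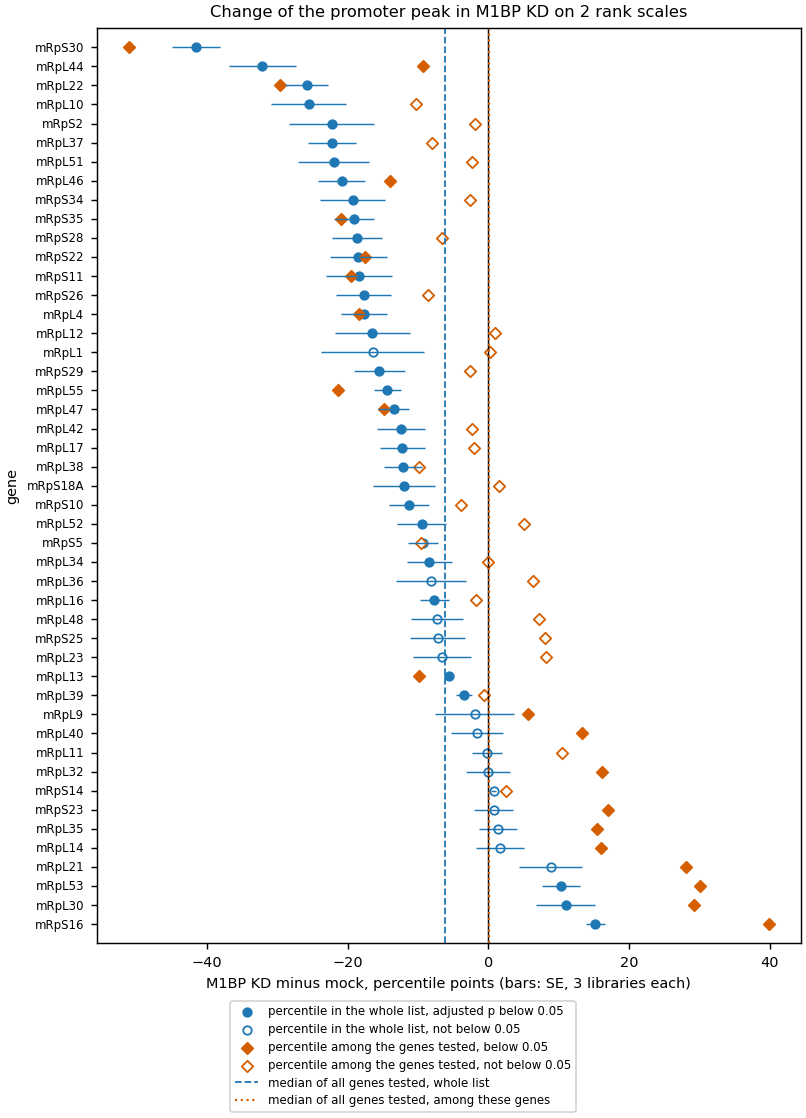
M1BP KD minus mock in percentile points (x axis) for each of the 47 genes (y axis), as percentile within the whole list (circles, bars are SE) and as percentile among the 6100 genes tested (diamonds), filled where adjusted p is below 0.05. The dashed line is the median of all genes on the first scale (−6.19) and the dotted line that on the other (0.01). mRpS30 is lowest and mRpS16 highest on both.

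Among the 10 largest falls were 2 genes with the Motif 1 core, mRpS30 and mRpL22. The human counterpart of mRpS30 is found in the large subunit in spite of its name. The mRpS30 promoter had percentiles of 40.8, 53.9 and 44.7 in M1BP KD, 88.6, 88.0 and 84.0 in Cp190 KD and 85.6, 89.8 and 88.9 in mock. All M1BP KD values lay far below every other library. The change was −41.6 ± 3.39 (SE), adjusted p = 3.21e-06, and among the genes tested −51.1 ± 4.76 (SE), adjusted p = 1.03e-05. Its summit held 136, 169 and 132 fragments in M1BP KD and 308, 350 and 354 in mock. mRpL22, whose bacterial counterpart lines the exit tunnel, had 56.1, 64.6 and 56.5 in M1BP KD, 85.3, 79.5 and 85.0 in Cp190 KD and 86.9, 84.7 and 83.2 in mock. M1BP KD lay below both other groups, with a change of −25.9 ± 3.00 (SE), adjusted p = 3.35e-05, and −29.6 ± 5.02 (SE), adjusted p = 4.77e-04 among the genes tested. These 2 genes fell on either scale.

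mRpL44, mRpL37, mRpL51 and mRpL46 are large subunit proteins with no bacterial counterpart. mRpL44 had 18.0, 25.4 and 27.4 in M1BP KD, 63.9, 58.4 and 52.1 in Cp190 KD and 62.2, 49.7 and 55.4 in mock. Its M1BP KD libraries were the lowest 3 of the 9, with a change of −32.2 ± 4.73 (SE), adjusted p = 1.69e-04, and −9.32 ± 3.07 (SE), adjusted p = 0.0234 among the genes tested. mRpL46, whose start is 28 bp from that of CG2021 on the other strand, had 51.3, 51.2 and 58.1 in M1BP KD, 75.9, 74.2 and 68.3 in Cp190 KD and 76.0, 70.1 and 77.1 in mock. It changed by −20.9 ± 3.31 (SE), adjusted p = 2.71e-04, and by −14.0 ± 4.61 (SE), adjusted p = 0.0234 among the genes tested. mRpL37 had 40.3, 42.9 and 41.9 in M1BP KD, 70.1, 60.4 and 59.4 in Cp190 KD and 65.0, 63.1 and 63.7 in mock. It changed by −22.2 ± 3.41 (SE), adjusted p = 2.22e-04, but by −8.03 ± 3.70 (SE), adjusted p = 0.0867 among the genes tested. mRpL51, 31 bp from the start of Uba4, had 14.9, 30.7 and 27.3 in M1BP KD, 61.3, 51.0 and 51.8 in Cp190 KD and 45.6, 48.9 and 44.4 in mock. It changed by −22.0 ± 5.06 (SE), adjusted p = 0.00278, but by −2.30 ± 2.42 (SE), adjusted p = 0.440 among the genes tested. The calls of mRpL37 and mRpL51 thus held on the whole-list scale only.

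mRpL10 belongs to the base of the stalk that recruits translation factors, and its DRE is shown above. Its percentiles were 25.1, 47.0 and 43.1 in M1BP KD, 71.2, 60.0 and 62.2 in Cp190 KD and 62.7, 61.0 and 68.2 in mock. The change was −25.6 ± 5.39 (SE), adjusted p = 0.00162, and −10.3 ± 4.28 (SE), adjusted p = 0.0606 among the genes tested. The small subunit genes mRpS2, mRpS34 and mRpS35 completed the 10. mRpS2, of the bacterial type, had 9.58, 31.9 and 30.4 in M1BP KD, 49.1, 42.6 and 42.0 in Cp190 KD and 45.2, 48.4 and 45.1 in mock. Its M1BP KD library 1 stood apart at 9.58, the lowest value of any of the 47 genes. mRpS2 changed by −22.3 ± 5.99 (SE), adjusted p = 0.00690, but by −1.96 ± 1.88 (SE), adjusted p = 0.395 among the genes tested. A peak summit lay within 100 bp of its start in every M1BP KD library and in no mock library. Its mock values therefore described peaks with the summit outside that window. mRpS34 and mRpS35 are mitochondrial proteins without a bacterial counterpart. mRpS34 had 30.3, 45.9 and 37.2 in M1BP KD, 61.8, 53.5 and 49.5 in Cp190 KD and 54.8, 58.3 and 58.2 in mock, with M1BP KD below all other libraries. It changed by −19.3 ± 4.62 (SE), adjusted p = 0.00350, but by −2.68 ± 2.93 (SE), adjusted p = 0.460 among the genes tested. mRpS35 had 60.2, 71.1 and 67.7 in M1BP KD, 83.8, 80.5 and 81.2 in Cp190 KD and 86.9, 85.1 and 84.3 in mock and changed by −19.1 ± 2.91 (SE), adjusted p = 2.08e-04, and by −20.9 ± 4.24 (SE), adjusted p = 0.00153 among the genes tested. Its summits lay 407 to 887 bp downstream of the start in all 9 libraries, so its value described a broad peak centred away from the promoter.

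The 3 rises were mRpS16, mRpL30 and mRpL53. mRpS16, a small subunit protein of the bacterial type, holds the Motif 1 core on the opposite strand and starts 97 bp from cg. It had percentiles of 97.1, 99.0 and 98.1 in M1BP KD, 81.7, 81.1 and 81.3 in Cp190 KD and 85.0, 82.8 and 80.7 in mock, so that M1BP KD lay above both other groups, and a change of 15.2 ± 1.42 (SE), adjusted p = 8.30e-06. Its summit positions in bp from the start were −1237, −1240 and −1240 in M1BP KD, −108, −108 and −107 in Cp190 KD and −108, −107 and −108 in mock. The rise was therefore the strength of a wider peak whose summit was far upstream, and with the summit required to lie within 100 bp of the start mRpS16 could not be tested. mRpL53, 170 bp from AGO1, had 90.6, 95.4 and 94.7 in M1BP KD, 76.8, 86.3 and 86.8 in Cp190 KD and 86.6, 79.7 and 83.6 in mock. Its change was 10.3 ± 2.73 (SE), adjusted p = 0.00646, with summits 116 to 121 bp upstream in all 9 libraries. mRpL30 had 65.1, 64.8 and 69.2 in M1BP KD, 55.5, 66.7 and 68.2 in Cp190 KD and 56.2, 48.5 and 61.4 in mock, so that M1BP KD overlapped Cp190 KD but not mock. Its change was 11.0 ± 4.19 (SE), adjusted p = 0.0376. That call was lost without M1BP KD library 1 (adjusted p = 0.0507), M1BP KD library 3 (0.115), mock library 1 (0.0694) or mock library 2 (0.153). Among the genes tested, mRpS16, mRpL53 and mRpL30 were higher by 39.8, 30.1 and 29.2 points, with adjusted p of 4.22e-06, 0.00137 and 4.38e-04.

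The other 20 genes with a lower percentile were mRpS28, mRpS22, mRpS11, mRpS26, mRpL4, mRpL12, mRpS29, mRpL55, mRpL47, mRpL42, mRpL17, mRpL38, mRpS18A, mRpS10, mRpL52, mRpS5, mRpL34, mRpL16, mRpL13 and mRpL39, with changes of −18.7 to −3.52 points. Of these, mRpS22, mRpS11, mRpL4, mRpL55, mRpL47 and mRpL13 were also lower among the genes tested. The calls of mRpL12, mRpS18A, mRpL52, mRpL34 and mRpL39 were lost without 2 to 5 of the 6 libraries, and the other 25 of the 30 lower genes passed whichever library was left out. mRpL12 lost it without M1BP KD library 1 or 2 or mock library 3, mRpS18A without M1BP KD library 1 or mock library 2 or 3, mRpL39 without M1BP KD library 3 or mock library 2, mRpL34 without M1BP KD library 1 or 3 or mock library 1 or 3, and mRpL52 in all cases but mock library 1. The 14 genes that did not pass the threshold were mRpL1, mRpL36, mRpL48, mRpS25, mRpL23, mRpL9, mRpL40, mRpL11, mRpL32, mRpS14, mRpS23, mRpL35, mRpL14 and mRpL21, with differences of −16.5 to 8.84 points. The 10 genes that were higher among the genes tested were mRpL32, mRpL35, mRpL9, mRpL40, mRpL21, mRpL53, mRpS16, mRpL30, mRpL14 and mRpS23. 

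Of the 8 genes with the Motif 1 core, 6 could be tested in M1BP KD. There 4 were lower (mRpS30, mRpL22, mRpL55 and mRpL13), 1 was higher (mRpS16) and mRpL48 did not pass the threshold. The higher peak of mRpS16 had its summit far upstream, as given above, and its core lacks the longer consensus. Of the 5 tested genes with the longer consensus, 4 were lower and 0 higher. mRpL55, a mitochondria-specific large subunit protein, had 75.1, 79.1 and 84.1 in M1BP KD, 94.7, 93.5 and 93.2 in Cp190 KD and 95.3, 92.6 and 93.6 in mock, a change of −14.4 ± 1.9 (SE), adjusted p = 8.25e-05, and −21.5 ± 3.14 (SE), adjusted p = 1.76e-04 among the genes tested. Its summit lay 673 to 676 bp downstream of the start in every library. mRpL13, a large subunit protein of the bacterial type, had 90.9, 93.8 and 93.0 in M1BP KD, 94.6, 95.0 and 94.6 in Cp190 KD and 98.2, 98.4 and 98.0 in mock. Its change of −5.63 ± 0.687 (SE), adjusted p = 4.70e-05 was small but its libraries were close to each other, and it was −9.88 ± 1.28 (SE), adjusted p = 7.94e-05 among the genes tested. mRpL48 had 49.5, 47.5 and 54.1 in M1BP KD, 64.9, 65.3 and 64.6 in Cp190 KD and 53.9, 53.3 and 65.8 in mock, a change of −7.31 ± 3.75 (SE), adjusted p = 0.109. Among the genes tested its sign turned, to 7.16 ± 4.04 (SE), adjusted p = 0.155. The median change was −10.84 points over the 6 genes and −11.97 over the other 41, a difference of 1.13 points that turned to −13.9 points when percentiles were taken among the genes tested. It also turned negative with the longer consensus (−2.74), the strongest 13464 peaks of each list (−3.98), summits in the window (−13.5, with 3 of the genes) and −log10 q of at least 20 (−7.43). No direction was read from it. Over all genes tested, the median change was −12.40 points for 783 genes with the core and −5.50 for 5317 without it, and 72.8% and 49.6% were lower. Among the genes tested alone, 4 of the 6 were lower and 1 higher, against 7 lower and 9 higher of the other 41. Over all genes on that scale, 377 were lower and 99 higher with the core, and 1249 and 1506 without it. mRpS21 and mRpL27, the other genes with the core, are described with the presence of peaks.

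The 16 small subunit genes tested held 12 lower and 1 higher call with a median change of −16.63 points, and the 31 large subunit genes 18 and 2 with −8.39. Among the genes tested alone, the counts were 4 lower and 2 higher against 7 lower and 8 higher, and whether the subunits differ was not tested. Genes with an E-box were lower in 11 of 22 cases and those without it in 19 of 25, beside 45.3% and 54.7% of all genes tested with and without it. Among the genes tested alone, 5 were lower and 6 higher with an E-box, and 6 lower and 4 higher without it. Over all genes on that scale, 258 were lower and 440 higher of 1383 with it, and 1368 and 1165 of 4717 without it. Of 15 tested genes in the list of other mitochondrial gene expression genes, such as translation factors and mitochondrial tRNA synthetases, 8 were lower and 2 higher with a median of −9.15 points. That list had 34 symbols, of which 31 were in the annotation. It includes tko and bonsai, mitochondrial ribosomal protein genes that the symbol rule did not take. Of 70 tested cytosolic ribosomal protein genes, 60 were lower and 0 higher with a median of −9.65, and 44 were lower and 2 higher among the genes tested alone. The fall of the cytosolic list was thus seen on both scales, in contrast to 11 lower and 10 higher for the mitochondrial ribosomal genes. All these are counts beside each other, and no test of the lists was made.

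Both knockdowns were set against the same 3 mock libraries. In Cp190 KD against mock, 1 of the 47 genes was lower and 0 were higher, beside 0.77% lower and 0.131% higher of all genes tested. The median change was 0.01 points over the 47 genes and 0.58 over all. The lower gene was mRpL13, with a change of −3.47 ± 0.687 (SE), adjusted p = 0.0377 and the values given above. The call was lost whichever of the 6 libraries was left out (adjusted p 0.105 to 0.171) and with log2 fold enrichment (0.0865). Among the genes tested alone it was kept, at −9.74 ± 1.28 (SE), adjusted p = 0.00137, beside 1.38% lower and 0.213% higher of all genes. No library was left out on that scale. M1BP KD was also set directly against Cp190 KD, without the mock libraries in the difference. There 31 of the 47 genes were lower and 2 higher (mRpS16 and mRpL53), beside 56.2% and 8.93% of all genes. The median difference was −12.16 points over the 47 genes and −7.01 over all. Among the genes tested alone 7 were lower (14.9%) and 10 higher (21.3%), beside 24.9% and 25.0% of all genes. mRpS30 differed by −40.4 ± 3.39 (SE), adjusted p = 3.96e-06, mRpL44 by −34.5 ± 4.73 (SE), adjusted p = 9.72e-05 and mRpS16 by 16.7 ± 1.42 (SE), adjusted p = 4.28e-06 in this comparison by limma.

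Promoter peaks were narrower in M1BP KD than in mock for 17 of the 47 genes and wider for 2, by limma on log2 width, beside 25.6% narrower and 7.41% wider of all genes tested. The median log2 change was −0.27 over the 47 genes and −0.12 over all. The count of narrower peaks was 10 without M1BP KD library 1, 11 without mock library 2 and 9 without mock library 3. Over all genes tested the same fits called 1319 of 6224, 1244 of 6121 and 1215 of 6120 narrower. The largest change was that of mRpL46, with widths of 477, 638 and 1215 in M1BP KD and 1868, 1861 and 2522 in mock, in bp, and a log2 change of −1.52 ± 0.32 (SE), adjusted p = 0.0106. mRpS14 had the strongest promoter, where a percentile has little room to rise. Its log2 fold enrichment, centred on the median of the genes tested in each library, was higher in M1BP KD by 0.50 (limma, adjusted p = 2.97e-05). Its widths were 1631, 1758 and 1446 in M1BP KD and 2356, 2355 and 2355 in mock, with a log2 change of −0.55 ± 0.06 (SE), adjusted p = 7.84e-04. mRpL32 and mRpL52, large subunit proteins, followed the same direction. mRpL32 had widths of 967, 908 and 844 in M1BP KD and 1545, 1979 and 1734 in mock, a log2 change of −0.95 ± 0.09 (SE), adjusted p = 3.24e-04. mRpL52 had 852, 766 and 857 in M1BP KD and 1351, 1651 and 1697 in mock, a log2 change of −0.92 ± 0.10 (SE), adjusted p = 4.18e-04. mRpL12, the stalk protein, had 256, 333 and 459 in M1BP KD and 604, 613 and 611 in mock, a log2 change of −0.84 ± 0.19 (SE), adjusted p = 0.0146. In each of these the M1BP KD peaks were the narrowest 3 of the 6.

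The other genes with narrower peaks were mRpS2, mRpS22, mRpL38, mRpL11, mRpS28, mRpL40, mRpS10, mRpL1, mRpL16, mRpL4, mRpS30 and mRpL35, with log2 changes of −1.29 to −0.16. Of the 17 narrower genes, 8 passed the threshold whichever library was left out (mRpL46, mRpL32, mRpL52, mRpL12, mRpL16, mRpS14, mRpS28 and mRpS30). The other 9 lost the call without at least 1 library, and they were mRpS2 (log2 change −1.29), mRpS22 (−1.05), mRpL38 (−1.01), mRpL11 (−0.96), mRpL40 (−0.71), mRpS10 (−0.67), mRpL1 (−0.59), mRpL4 (−0.49) and mRpL35 (−0.16). mRpS2 and mRpL38 lost the call whichever of the 3 mock libraries was left out (adjusted p 0.0521 to 0.0872). mRpS22 lost it without M1BP KD library 1 or 2 or mock library 1 or 3, and mRpL11 whichever library but mock library 1 was left out. mRpL4 lost it whichever of the 6 libraries was left out, mRpS10 in all cases but mock library 1, mRpL1 in all but mock library 2, mRpL40 in all but M1BP KD library 2, and mRpL35 without M1BP KD library 1 or mock library 2 or 3. The 2 wider peaks were those of mRpS16 and mRpL23. The mRpS16 peak had widths of 1503, 1523 and 1458 in M1BP KD and 565, 555 and 546 in mock, a log2 change of 1.43 ± 0.06 (SE), adjusted p = 7.26e-06. mRpL23, at the rim of the exit tunnel in bacterial ribosomes, had 998, 980 and 947 in M1BP KD, 422, 1040 and 456 in Cp190 KD and 423, 424 and 423 in mock, a log2 change of 1.20 ± 0.31 (SE), adjusted p = 0.0244 that was lost whichever of the 6 libraries was left out (0.0536 to 0.0668). In Cp190 KD 0 of the 47 genes were narrower or wider by limma, beside 0.525% and 0.377% of all genes.

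For presence, a gene was counted as lost when all 3 mock and no knockdown library had a promoter peak, and as gained in the opposite case, with no test. M1BP KD lost 1 of the 73 genes (1.37%) and gained 4 (5.48%), beside 1.94% lost and 0.843% gained of all 18277 genes. The shares of all genes include noncoding genes, and shares of protein-coding genes alone are not given. Cp190 KD lost 0 and gained 0, beside 0.367% and 0.191%. The lost gene was mRpS7, a small subunit protein that in bacteria binds the head of the subunit. Its percentiles were 48.2, 55.1 and 61.4 in Cp190 KD and 47.1, 49.9 and 52.3 in mock, with summits 17 to 26 bp upstream of the start. In M1BP KD the nearest peak edges were 336, 315 and 1336 bp away.

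The gained genes were mRpS6, mRpL2, mRpL28 and mRpL27, all of the bacterial type. mRpS6 had percentiles of 35.8, 49.2 and 44.1 in M1BP KD, with summits 37 bp upstream of the start in each. The distances between its start and the nearest peak were 0, 0 and 0 bp in M1BP KD, 245, 256 and 320 bp in Cp190 KD and 198, 255 and 245 bp in mock. mRpL2, close to the peptidyl transferase centre of the ribosome and 64 bp from FoxK, had percentiles of 49.0, 59.7 and 55.9 in M1BP KD and a peak at 28.1 in 1 Cp190 KD library. Its distances were 0, 2 and 2 bp in M1BP KD, 41, 521 and 529 bp in Cp190 KD and 555, 553 and 553 bp in mock. mRpL28 had percentiles of 19.1, 24.0 and 30.9 in M1BP KD, with summits 39 to 40 bp downstream of the start, and 9.31 in 1 Cp190 KD library. mRpL27, which holds the Motif 1 core, had 25.7, 18.4 and 36.7 in M1BP KD in weak peaks of 106 to 120 fragments, and a peak in 2 of 3 Cp190 KD libraries. Its distances were 0, 0 and 0 bp in M1BP KD, 0, 216 and 9 bp in Cp190 KD and 1198, 1198 and 1190 bp in mock. Of these, mRpL2, mRpL28 and mRpL27 thus had a peak in 1 or 2 Cp190 KD libraries too. With a window of 500 bp 2 of the 73 genes were gained in M1BP KD and 1 in Cp190 KD, and the shares of all genes in that window are not given.

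Of the 26 genes without a promoter peak in at least 1 library, 10 had none in any (mRpL15, mRpL19, mRpL20, mRpL24, mRpL33, mRpL45, mRpL50, mRpL54, mRpS24 and mRpS33). Of these, 5 had a peak within 500 bp in all 9 libraries, mRpL24 for instance at 176 to 186 bp. The other 16 had peaks in some libraries, and 12 of them had one within 500 bp in all 9. How far the nearest edge lay where no peak was counted differed between these 12, and what set their presence was not tested. At mRpS6 the nearest edges were at 0 bp in M1BP KD and at 198 to 255 bp in mock. At mRpL28 they were at 0 bp in M1BP KD and at 366 to 442 bp in mock. The nearest edges of mRpS18B lay close to the counting limit, on both sides of it. They were 125, 195 and 134 bp away in M1BP KD. In Cp190 KD they were 87, 88 and 82 bp away, and in mock 81, 88 and 129 bp. mRpS18B was counted in 0 of 3 M1BP KD, 3 of 3 Cp190 KD and 2 of 3 mock libraries. mRpS17 was counted in the same numbers, but its nearest edges in M1BP KD were at 317 to 330 bp. mRpS21, with the Motif 1 core, was counted in 2 M1BP KD libraries at percentiles of 82.6 and 90.9 and in no other. Those peaks had summits at −713 and −1000 bp, and a peak edge lay within 206 bp of the start in all 9 libraries. mRpL3 was counted in 3 of 3 M1BP KD, 2 of 3 Cp190 KD and 1 of 3 mock libraries, mRpL18 in 3, 3 and 2, mRpL41 in 2, 2 and 0, mRpL49 in 2, 0 and 0, mRpL43 in 1, 0 and 0, mRpS18C in 2, 1 and 2, mRpS9 in 2, 3 and 3, and mRpS31 in 0, 0 and 1.

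**Figure D4:**
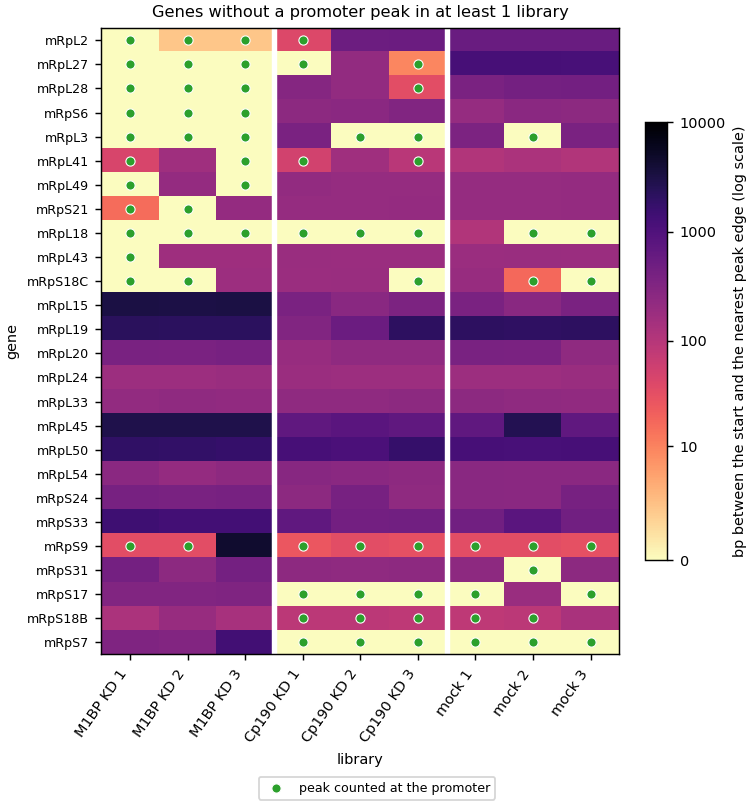
The 26 genes (rows) without a promoter peak in at least 1 of the 9 libraries (columns). Colour is the distance in bp from the nearest transcript start to the nearest peak edge on a log scale, and green dots mark peaks counted at the promoter. mRpS7 has dots in every Cp190 KD and mock library and none in M1BP KD, and mRpS6 has dots in M1BP KD alone.

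The position of the summit was examined after its values were seen, with no test. Among the 47 genes, 34, 30 and 32 had a peak summit within 100 bp of a start in M1BP KD, against 15, 24 and 23 in Cp190 KD and 24, 20 and 19 in mock. No Cp190 KD or mock library reached the M1BP KD counts. Over the 6100 genes tested, the shares were 67.5 to 68.0% in M1BP KD, 59.9 to 67.7% in Cp190 KD and 62.7 to 64.0% in mock, and for the mitochondrial ribosomal genes they were 63.8 to 72.3%, 31.9 to 51.1% and 40.4 to 51.1%. Of all 73 genes, 12 (16.4%) gained a summit in the window in all 3 M1BP KD and no mock library and 1 (mRpS7) lost it. Of all 18277 genes, noncoding ones included, 1.75% gained and 1.78% lost one. Among genes tested the gains were 7 of 47 (14.9%) and 237 of 6100 (3.89%). In Cp190 KD 0 of the 73 gained and 0 lost one, beside 0.23% and 0.252% of all genes.

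The 12 genes were mRpS6, mRpL2, mRpL28 and mRpL27 from above and mRpL12, mRpL14, mRpL16, mRpL17, mRpL18, mRpL40, mRpS2 and mRpS22. Summit positions at mRpL12, in bp from the start and positive downstream, were 46, 46 and 46 in M1BP KD and 223, 245 and 218 in mock. At mRpL16 they were −42, −61 and −57 in M1BP KD and −240, −240 and −240 in mock, and at mRpL17 16, 16 and 52 in M1BP KD and 174, 179 and 191 in mock. At mRpS22, a mitochondria-specific small subunit protein, they were 52, 82 and 54 in M1BP KD and 195, 195 and 108 in mock, and at mRpL40, a mitochondria-specific large subunit protein, −73, −55 and −29 in M1BP KD and 147, 180 and 177 in mock. Of these large subunit genes, mRpL16 passed the threshold for a narrower peak and mRpL17 did not. The width of the mRpL16 peak in bp was 521, 711 and 549 in M1BP KD and 859, 821 and 860 in mock, a log2 change of −0.53 ± 0.11 (SE), adjusted p = 0.0103, and that of mRpL17 446, 500 and 440 in M1BP KD and 570, 497 and 479 in mock, a log2 change of −0.16 ± 0.10 (SE), adjusted p = 0.280. The percentile of mRpL12, mRpL16 and mRpL17 changed by −16.5, −7.73 and −12.2 points in M1BP KD, each past the threshold. Among the genes tested alone they changed by 0.869, −1.78 and −2.04 points, none past the threshold (adjusted p = 0.856, 0.733 and 0.751). At mRpL14 the percentile changed by 1.62 ± 3.41 (SE), adjusted p = 0.698, and by 16.0 ± 2.16 (SE), adjusted p = 1.08e-04 among the genes tested, with summit positions of −40, −14 and −45 in M1BP KD and 249, 242 and 210 in mock.

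**Figure D5:**
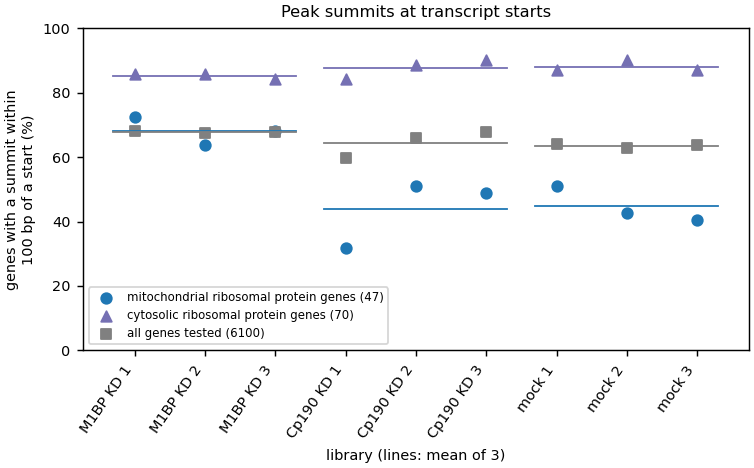
Share of genes (y axis, percent) with a peak summit within 100 bp of a transcript start in each library (x axis), for the 47 mitochondrial ribosomal protein genes, 70 cytosolic ribosomal protein genes and all 6100 genes tested, with lines at the mean of 3 libraries. The mitochondrial ribosomal genes sit at 63.8 to 72.3% in M1BP KD, against 40.4 to 51.1% in mock, while the cytosolic list stays between 84.3 and 90.0% throughout.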

How the data were processed

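ATAC-seq peaks of 9 Kc167 libraries, 3 each of M1BP KD, Cp190 KD and mock, were analysed as the authors' narrowPeak lists. Per the study's methods, the authors trimmed reads with cutadapt 1.8.1, aligned them to dm6 with Bowtie2 2.3.5, filtered them with SAMtools 1.9 and Picard (mitochondrial reads and duplicates removed) and called peaks with MACS2 2.2.5 at q 0.0001, without a control and on each library alone. A shift of reads for the Tn5 cut is not given in the sources used here. The deposited columns hold a score, the fold enrichment as a ratio, −log10 p and −log10 q. Because a peak was either called or not at one threshold, a gene close to it can change presence through depth alone, and presence was therefore given with the distance to the nearest peak.

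Transcript starts came from the Ensembl release 115 annotation, which uses dm6 coordinates and may differ from the authors' FlyBase release, and sequences from the RefSeq genome of the same assembly. A gene took its strongest peak within 100 bp of any start, as a percentile of −log10 q within the list. Fragments over a summit were recovered from fold and −log10 p and came out whole within 0.05 for all 153300 peaks. They are the only measure of depth used here. Percentiles and log2 widths were tested with limma 3.58.1 (moderated test with trend, all 9 libraries, no covariates) in R 4.3.3 over the 6100 genes with a promoter peak in all 9 libraries, with Benjamini-Hochberg adjustment and a threshold of 0.05. Count models were not used, since no read counts were analysed. Alternatives were other rank scales, windows, starts, thresholds, fits with fewer libraries and a replicate block. Log2 fold enrichment, also an alternative, was centred on the median of the genes tested in each library wherever it is given.

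Genes were named if they lacked a promoter peak in any library, were among the 10 largest falls or rises past the threshold in M1BP KD, passed it in Cp190 KD, held the Motif 1 core, had a mean among the 3 highest or lowest in mock, or were among the 10 largest width changes. Other genes named were chosen after their values were seen. The genes, lists, motifs and tests were chosen with earlier results of these data known.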

Additional observations from a re-analysis of the deposited data

Results flagged for a closer look

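The direct comparison of M1BP KD with Cp190 KD by limma was examined for the genes named in the report. Of the 47 genes tested, 19 named ones differed between the knockdowns (adjusted p below 0.05). Of all 47, 31 were lower and 2 higher, beside 56.2% and 8.93% of all genes tested, so such calls were common. The 10 largest falls and the 2 higher genes were named for their change in M1BP KD against mock, from the same M1BP KD libraries. The values are differences of percentile points, M1BP KD minus Cp190 KD. M1BP KD was lower at mRpS30 (−40.39), mRpL44 (−34.53), mRpL51 (−30.40), mRpL10 (−26.06), mRpL22 (−24.18), mRpL12 (−21.97), mRpL37 (−21.58), mRpS2 (−20.63), mRpL46 (−19.23), mRpS22 (−18.22), mRpS34 (−17.1), mRpS35 (−15.48), mRpL9 (−15.22), mRpL48 (−14.55), mRpL55 (−14.38), mRpL38 (−11.45) and mRpL13 (−2.16). M1BP KD was higher at mRpS16 (16.66) and mRpL53 (10.28). Among the genes tested alone, 24.9% of all genes were lower and 25.0% higher. On that scale 6 of the 17 lower genes passed the threshold (mRpS30, mRpL44, mRpL51, mRpL22, mRpL55 and mRpS35) and so did both higher ones. The other 11 lost the call, for example mRpL12 (−2.06, adjusted p = 0.655), mRpL37 (−5.68, 0.222), mRpS2 (−0.38, 0.883) and mRpL13 (−0.14, 0.935). Of these genes, mRpL48 and mRpL9 did not pass the threshold in M1BP KD against mock. The M1BP KD lists were shorter and had lower background coverage than the Cp190 KD lists, and the part of this in the differences was not tested beyond the rank scales given with the dependence on processing.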

How the results depend on the processing

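In M1BP KD against mock, 30 genes were lower and 3 higher. The counts were 16 and 7 with the strongest 13464 peaks of each list, 11 and 10 among the genes tested, 16 and 11 with log2 fold enrichment, 10 and 1 of 12 genes with the summit in the window, and 15 and 5 of 39 genes with −log10 q of at least 20. The same settings called 34.5% and 19.8%, 26.7% and 26.3%, 26.02% and 26.7%, 55.6% and 9.44%, and 36.5% and 18.6% of all genes they tested. Leaving out 1 library gave 26 to 29 lower and 2 to 3 higher. Over the 6112 to 6224 genes then tested, 2849 to 3346 were lower and 508 to 641 higher. The median change of −11.97 points was −5.73 with the strongest peaks, −1.96 among the genes tested and −6.67 with −log10 q of at least 20. In M1BP KD against Cp190 KD, 31 lower and 2 higher became 17 and 5, 7 and 10, 12 and 8, 10 and 0, and 19 and 4 in the same order of settings, beside 36.6% and 15.9%, 24.9% and 25.0%, 25.0% and 26.4%, 58.7% and 7.91%, and 40.8% and 13.5% of all genes, and the median of −12.16 points became −6.63 with the strongest peaks and −0.60 among the genes tested. The 1 lower gene in Cp190 KD against mock became 0 with log2 fold enrichment, without the trend, with the replicate block, and with any library left out (0 to 0). It stayed 1 with the strongest peaks and among the genes tested.

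The difference of 1.13 points between the genes with and without Motif 1 became −2.74 with the consensus, −3.98 with the strongest peaks, −13.89 among the genes tested, −13.49 with the summit in the window, −7.43 with −log10 q of at least 20, and −0.32 to 2.38 with 1 library left out. In M1BP KD against mock, mRpL9 was higher with the strongest peaks (14.66 points) and among the genes tested (5.67). Against Cp190 KD, the sign also turned among the genes tested for mRpS34 (0.29), mRpL48 (0.75) and mRpL9 (1.72), and with log2 fold enrichment for mRpL13 (0.13), mRpL48 (0.017) and mRpL38 (0.10). The cause was not tested.

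Narrower peaks (17 genes) numbered 3 of 12 with the summit in the window, 9 with the replicate block, 12 with widths centred per library and 9 to 14 with 1 library left out, and wider ones (2) 0 with the summit in the window, 4 with widths centred per library and 1 to 2 with 1 library left out. Of all genes these settings called 25.7% narrower and 6.43% wider by summit, 21.7% narrower with the block, and 15.9% narrower and 26.6% wider with centred widths. With 1 library left out, 1215 to 1699 of all genes tested were narrower and 320 to 431 wider. Percentile deviations of same-numbered libraries from their group means correlated with r of −0.17 to 0.057. A percentile within a library leaves out shifts shared by its peaks, so these values cannot decide whether same-numbered libraries were prepared together. The labels do not say. The block gave 29 lower and 3 higher in M1BP KD against mock. Gained genes in M1BP KD (4) numbered 2 with a window of 500 bp, 12 by summit and 2 with −log10 q of at least 20, and in Cp190 KD (0) 1 with 500 bp, 2 with −log10 q of at least 20 and 0 to 2 with 1 library left out (2 without Cp190 KD library 2). The lost gene in M1BP KD became 2 with −log10 q of at least 20 and 1 to 2 with 1 library left out (2 without mock library 2 or 3). Genes with a summit in the window in every library of a group numbered 33 in M1BP KD, 15 in Cp190 KD and 18 in mock, against 53, 52 and 49 by overlap. By summit, 1.75% of all genes were gained in M1BP KD. For the other settings of gained and lost genes, and for summits in every library of a group, shares of all genes are not given. Those counts are therefore not read as particular to these genes. Of the values of the genes named by rule under all alternatives, 699 kept their direction and side of the threshold, 81 lost and 2 gained the call, and 8 turned sign. The width with only the 5-prime-most start was an alternative chosen after seeing the data and gave 17 narrower and 2 wider genes.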

Other observations

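The E-box matches were often followed by TT, and that longer form was counted after the sites had been seen, with no test. CAGCTGTT, read on either strand, was found within 100 bp of a start in 29 of the 73 genes (39.7%), in 16 of 31 other genes of mitochondrial gene expression (51.6%), in 3 of 92 cytosolic ribosomal protein genes (3.26%) and in 7.28% of 13968 protein-coding genes. Among protein-coding genes with a promoter peak in all 3 mock libraries the share was 10.7%. The 35 matches lay 74 bp before to 37 bp after a start, with 29 of them within 40 bp, and read in the direction of transcription in 25 cases and against it in 10. At mRpS18C, mRpL40, mRpL2, mRpL18, mRpL41 and mRpL28 the same E-box matched on both strands and was counted once for each. These are therefore counts of matches and not of separate sites.

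At the M1BP gene itself the promoter peak was 307 to 482 bp wide in M1BP KD, 1380 to 1390 bp in Cp190 KD and 1379 to 1399 bp in mock.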
